A study of Mus musculus with 6 samples.

Results

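The genes described here are 40 cell cycle and DNA replication genes, picked by exact match of their symbols in a table of 21956 genes. They were read as 22 mitotic genes and 18 replication genes. Each symbol matched a single row, and 40 of 40 passed the filter on low counts that left 12551 genes for testing. The question was how their transcripts differed between the VE and the Aalter libraries.

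Cells that divide first license their DNA for copying, then copy it, then separate the copies. Licensing loads the MCM helicase (Mcm2 to Mcm7) onto replication origins with the help of Cdc6 and Cdt1, and cyclin E with its kinase then drives entry into DNA synthesis. Cyclin B with Cdk1 later drives mitosis, and the anaphase-promoting complex, with Cdc20 and Ube2c, ends it by marking cyclin B for destruction. E2F factors switch on many replication genes, while mitotic genes are known for promoters with CCAAT boxes and CHR elements, which are read by the factor NF-Y and by the DREAM and MuvB complexes. In inflamed lung, dividing cells are known to include lymphocytes, plasmablasts, macrophages and epithelium.

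RNA sequencing was done on mouse material labelled lung tissue, in 3 VE and 3 Aalter libraries. The labels spell out neither group name and give no strain, age, dose, time or untreated group, and the series title mentions alpha tocopherol, which belongs to the vitamin E compounds, together with allergic airway inflammation, ILC2 ferroptosis and LKB1. No label ties the libraries to separate animals, and the p-values therefore reflect only how far these samples spread, which may be technical. Library totals were 12663763 to 15077851 estimated counts in VE and 11617074 to 16205053 in Aalter.

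Some facts of the libraries bear on all results below. Sftpc, the surfactant gene of alveolar type 2 cells, measured 13.4 to 18.3 CPM (read counts relative to library size, after TMM scaling) in VE and 12.6 to 14.4 CPM in Aalter. The leukocyte gene Ptprc lay between 1344 and 1405 CPM in VE and between 1095 and 1377 CPM in Aalter, so this epithelial marker of lung was low in all 6 libraries. On the first principal component, which held 66.7% of the variance, the VE libraries scored -40.2 to -36.0, Aalter-2 and Aalter-3 scored 61.4 and 56.0, and Aalter-1 stood between at -2.34. In 12 of the 13 members past the test, Aalter-1 was the Aalter library nearest to the VE mean. The same count was not made over all genes, so it marks no trait of the members. In such bulk samples fewer dividing cells and less RNA per dividing cell cannot be told apart.

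Among the replication genes some fell and others rose, and the mitotic genes that passed the test all rose. In VE the licensing genes Cdt1, Mcm2, Mcm3, Mcm4 and Mcm5 were lower, with Gins2 and Uhrf1, while cyclin E2 (Ccne2) and the nucleotide enzyme gene Rrm2 were higher. Of the mitotic genes, Ccnb1, Ccnb2, Bub1 and Ube2c were higher. The words rose and fell are used for an adjusted p under 0.05 in the quasi-likelihood test of edgeR (Benjamini-Hochberg, over all 12551 genes), and fold changes are VE over Aalter. Of the 18 replication genes 7 fell (38.9%), against 19.5% of all tested genes that fell, and 2 rose (11.1%), against 12.8% of all tested genes that rose. Of the 22 mitotic genes 4 rose (18.2%), a share near that 12.8%, and 0 fell by edgeR, as also by DESeq2 and limma-voom and at an unadjusted p under 0.05.

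**Figure D1:**
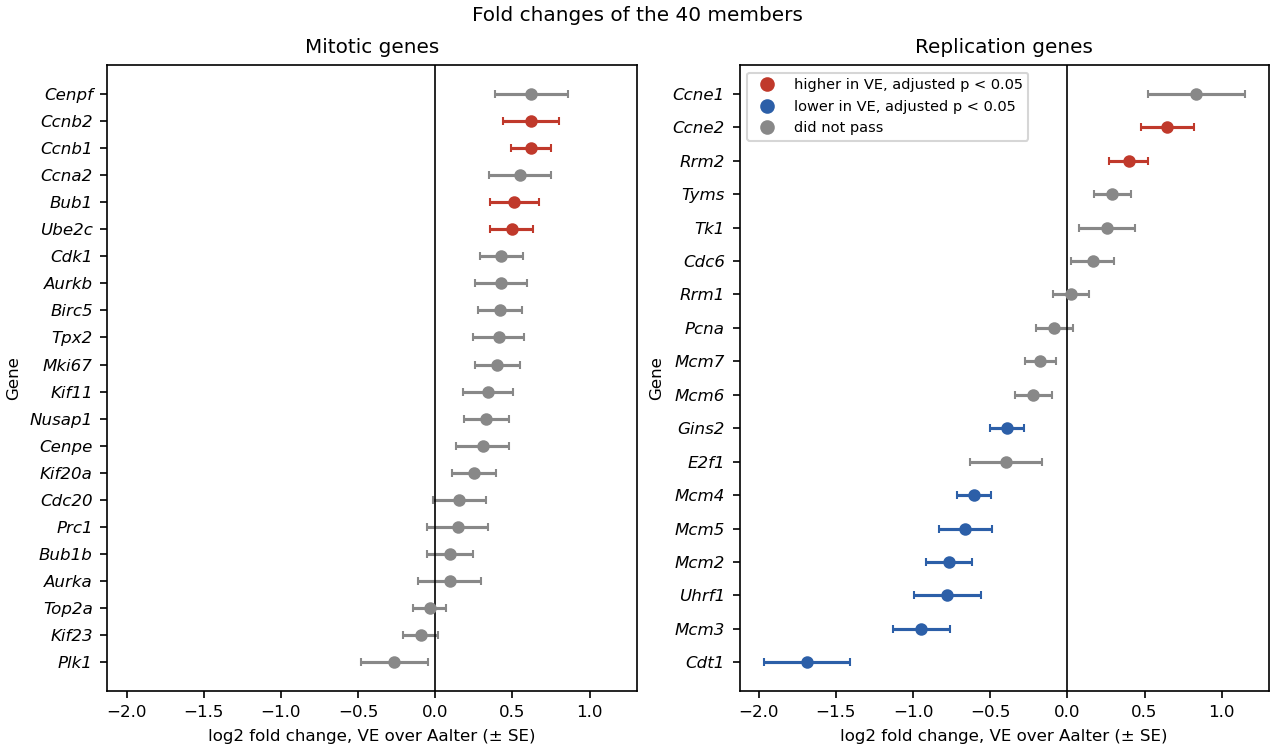
Log2 fold changes (VE over Aalter, horizontal axis) of the 22 mitotic genes on the left and the 18 replication genes on the right, with 1 row per gene and bars for the standard error. Red and blue points passed the test upward and downward, grey points did not pass. The mitotic genes lie between -0.27 and 0.62, and the replication genes between -1.69 and 0.84.

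The median log2 fold change was 0.37 over the mitotic genes and -0.20 over the replication genes, against 0.023 over all tested genes. Of the 22 mitotic genes 19 had a positive log2 fold change. In 11 of the 22 (50.0%) every VE library lay above every Aalter library, against 25.6% of all tested genes, and in 0 of the 22 every VE library lay below. In 7 of the 18 replication genes (38.9%) every VE library lay below every Aalter library, against 26.3% of all tested genes, and in 4 every VE library lay above. Summed over the genes, mitotic transcripts came to 596, 638 and 745 CPM in VE and 593, 508 and 499.6 CPM in Aalter. Replication transcripts came to 735, 745 and 799.6 CPM in VE and 813, 952 and 933 CPM in Aalter. The VE libraries thus lay above the Aalter libraries in the mitotic sum and below them in the replication sum, with Aalter-1 close to VE in both. Such sums weigh abundant genes most. The largest part of the mitotic sum was Mki67 (176 to 203 CPM in VE and 120 to 174 CPM in Aalter). That of the replication sum was Pcna (295 to 311 CPM in VE and 273 to 354 CPM in Aalter), and neither gene passed.

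**Figure D2:**
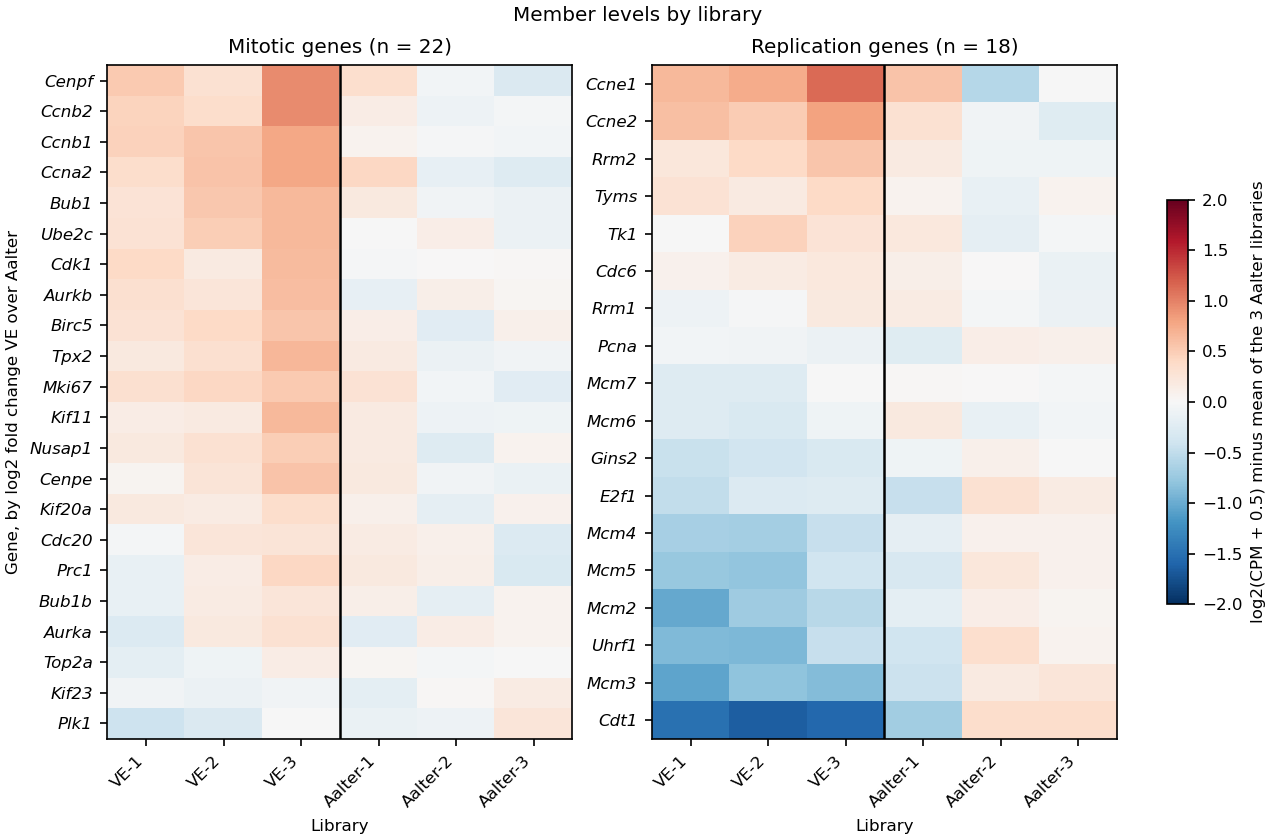
Levels of each gene in the 3 VE libraries (left of the line) and the 3 Aalter libraries, as log2(CPM + 0.5) minus the mean of the 3 Aalter libraries, on a colour scale from -2 (blue) to 2 (red). Genes are ordered by log2 fold change. Cdt1 and the Mcm2 to Mcm5 rows are blue in every VE library, and in those rows Aalter-1 is the bluest of the 3 Aalter libraries.

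The promoters of the genes with the smallest p-values are shown because the members were picked by role, and these roles are known for different promoter elements. Promoters came from RefSeq (GRCm38.p6, the assembly also called mm10), whose table held 33 of the 40 genes with 36 starts. It did not hold Ccna2, Aurkb, Kif20a, Tpx2, Mcm4, Gins2 and Ccne2. The 250 bases before each start were searched on both strands for the CCAAT box (CCAAT), the CHR element (TTTGAA) and the E2F motif (TTCCCGC or TTGGCGC or TTCGCGC or TTGCCGC). Capitals mark the matches, which can overlap: in Ccnb1 an E2F match (GCGCCAA) and a CCAAT box share bases. The 3 mitotic genes with the smallest p among those in the table read 5′ to 3′ as follows.

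Ccnb1, chr13:100786487-100786736, minus strand: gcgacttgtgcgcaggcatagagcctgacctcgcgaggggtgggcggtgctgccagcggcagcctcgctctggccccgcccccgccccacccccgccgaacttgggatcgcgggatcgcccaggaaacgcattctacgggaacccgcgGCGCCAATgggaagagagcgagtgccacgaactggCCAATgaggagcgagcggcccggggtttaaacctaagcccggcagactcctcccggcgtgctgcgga

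Ube2c, chr2:164769679-164769928, plus strand: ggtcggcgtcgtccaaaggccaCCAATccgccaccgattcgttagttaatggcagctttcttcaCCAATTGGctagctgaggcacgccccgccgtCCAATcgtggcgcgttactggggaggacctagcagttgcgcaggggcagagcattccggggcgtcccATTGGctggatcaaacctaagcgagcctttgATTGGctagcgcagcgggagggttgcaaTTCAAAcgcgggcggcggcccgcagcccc

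Ccnb2, chr9:70421555-70421804, minus strand: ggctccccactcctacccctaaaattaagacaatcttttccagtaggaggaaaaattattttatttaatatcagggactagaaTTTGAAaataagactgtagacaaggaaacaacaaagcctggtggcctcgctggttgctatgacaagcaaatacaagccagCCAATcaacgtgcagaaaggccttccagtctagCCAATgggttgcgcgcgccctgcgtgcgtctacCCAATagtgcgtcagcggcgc

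The 3 replication genes with the smallest p among those in the table follow. The Cdt1 stretch holds none of these letters.

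Cdt1, chr8:122567765-122568014, plus strand: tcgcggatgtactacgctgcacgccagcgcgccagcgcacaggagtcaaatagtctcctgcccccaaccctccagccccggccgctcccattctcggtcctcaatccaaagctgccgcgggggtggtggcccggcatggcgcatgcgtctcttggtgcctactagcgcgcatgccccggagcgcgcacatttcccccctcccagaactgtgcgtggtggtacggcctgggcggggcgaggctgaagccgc

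Mcm3, chr1:20820313-20820562, minus strand: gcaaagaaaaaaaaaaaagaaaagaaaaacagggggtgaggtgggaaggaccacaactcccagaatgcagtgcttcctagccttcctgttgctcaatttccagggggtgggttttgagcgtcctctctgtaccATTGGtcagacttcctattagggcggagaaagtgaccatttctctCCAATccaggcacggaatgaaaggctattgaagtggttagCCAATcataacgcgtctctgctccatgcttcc

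Mcm2, chr6:88898781-88899030, minus strand: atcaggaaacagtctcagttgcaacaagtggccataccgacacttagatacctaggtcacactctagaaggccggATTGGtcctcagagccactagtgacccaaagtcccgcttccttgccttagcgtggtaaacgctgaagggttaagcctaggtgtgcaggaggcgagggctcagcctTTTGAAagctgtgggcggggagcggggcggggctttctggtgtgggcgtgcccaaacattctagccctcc

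Mcm5, which fell, and Rrm2, which rose, are shown as well, chosen after their values were seen as an example in each direction with an E2F match. Uhrf1, which also fell and holds such a match, is not shown.

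Mcm5, chr8:75109259-75109508, plus strand: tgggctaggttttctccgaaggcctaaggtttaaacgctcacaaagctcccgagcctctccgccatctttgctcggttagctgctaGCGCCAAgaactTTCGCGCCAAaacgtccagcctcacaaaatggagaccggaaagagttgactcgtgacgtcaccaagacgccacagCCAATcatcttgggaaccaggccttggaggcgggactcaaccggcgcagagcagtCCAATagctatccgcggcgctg

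Rrm2, chr12:24708004-24708253, plus strand: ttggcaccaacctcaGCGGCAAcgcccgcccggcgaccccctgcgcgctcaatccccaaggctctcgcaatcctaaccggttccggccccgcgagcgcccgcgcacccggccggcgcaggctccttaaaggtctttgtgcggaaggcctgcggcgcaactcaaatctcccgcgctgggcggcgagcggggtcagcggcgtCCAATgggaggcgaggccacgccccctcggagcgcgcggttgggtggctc

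The CCAAT box stood in 17 of 19 promoters of mitotic genes (89.5%) and in 11 of 17 promoters of replication genes (64.7%), against 33.8% of all 32851 promoters in the table. The CHR letters stood in 8 of the 19 mitotic promoters (42.1%) and in 1 of the 17 replication promoters (5.88%), against 16.0% of all. An E2F match stood in 3 of the 19 mitotic promoters (15.8%) and in 9 of the 17 replication promoters (52.9%), against 7.89% of all. Of the 7 replication genes with an E2F match 1 rose, 2 fell and 4 did not pass, and of the 8 without one 3 fell and 5 did not pass. Of the 8 mitotic genes with CHR letters 2 rose, as did 2 of the 10 without. These counts stand against 12.8% of all tested genes that rose and 19.5% that fell. A match describes the letters of a window only.

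Licensing factors carried the largest fall. Cdt1, which recruits the MCM helicase to origins and is held in check by geminin, had 13.2, 11.8 and 12.5 CPM in VE-1 to VE-3, against 23.4, 48.7 and 48.8 CPM in Aalter-1 to Aalter-3. The VE libraries lay close together and below every Aalter library, of which Aalter-1 was the lowest. The log2 fold change was -1.69 ± 0.28 (SE), with an adjusted p of 0.00956, the lowest fold among the 40 genes. Cdt1 (ENSMUSG00000006585) spans 122568015 to 122573554 on chromosome 8 in GENCODE vM21 (mm10), and all 40 genes are annotated as protein-coding there. Cdc6, which loads the helicase together with Cdt1, had 7.52, 7.96 and 8.29 CPM in VE and 7.73, 7.09 and 6.40 CPM in Aalter, with overlapping groups (log2 fold change 0.16 ± 0.14, adjusted p = 0.388).

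Of the 6 subunits of the MCM helicase 4 fell (66.7%), against 19.5% of all tested genes, and 6 of 6 had a log2 fold change below 0. Mcm3 had 25.1, 29.8 and 28.8 CPM in VE, against 39.1, 59.5 and 62.6 CPM in Aalter, a log2 fold change of -0.95 ± 0.18 (adjusted p = 0.0131). Mcm2 had 17.99, 22.4 and 24.9 CPM in VE, against 32.3, 40.4 and 38.5 CPM in Aalter (log2 fold change -0.77 ± 0.15, adjusted p = 0.0132). Mcm5 had 29.95, 29.3 and 38.3 CPM in VE, against 40.7, 59.9 and 54.1 CPM in Aalter (-0.66 ± 0.17, adjusted p = 0.0267). For these 3 genes no VE library reached the lowest Aalter library, which was Aalter-1 each time. Mcm4 had 46.1, 45.8 and 52.9 CPM in VE, against 64.9, 77.6 and 77.99 CPM in Aalter (-0.61 ± 0.11, adjusted p = 0.0113), again without overlap.

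Mcm6 and Mcm7 did not pass. Mcm6 had 70.1, 67.1 and 78.8 CPM in VE and 95.7, 75.5 and 80.5 CPM in Aalter, with Aalter-1 the highest library and the groups overlapping (log2 fold change -0.22 ± 0.12, adjusted p = 0.181). Mcm7 had 36.0, 36.3 and 42.9 CPM in VE and 44.2, 43.6 and 42.4 CPM in Aalter (-0.17 ± 0.099, adjusted p = 0.205), and its exons overlap those of other genes. Per kilobase of the longest transcript, which allows genes to be compared, mean levels of Mcm2 to Mcm7 were 6.23, 8.13, 13.4, 9.62, 16.5 and 12.97 CPM per kilobase in VE, and 10.6, 15.7, 20.5, 15.2, 19.3 and 14.7 CPM per kilobase in Aalter. On that scale of levels Mcm2 was the lowest subunit in both groups. Summed over the 6 subunits the level was 225, 231 and 267 CPM in VE and 317, 357 and 356 CPM in Aalter. Mcm2 (ENSMUSG00000002870) spans 88883474 to 88898780 on chromosome 6, Mcm3 (ENSMUSG00000041859) 20802968 to 20820312 on chromosome 1, Mcm4 (ENSMUSG00000022673) 15623897 to 15637400 on chromosome 16 and Mcm5 (ENSMUSG00000005410) 75109569 to 75128439 on chromosome 8.

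Other replication genes lower in VE were Uhrf1 and Gins2. Uhrf1, which brings the maintenance DNA methyltransferase to newly copied DNA, had 14.98, 14.7 and 20.3 CPM in VE, against 21.2, 35.4 and 29.3 CPM in Aalter (log2 fold change -0.78 ± 0.22, adjusted p = 0.0326). Gins2, a subunit of the complex that activates the MCM helicase, had 14.8, 15.5 and 16.4 CPM in VE, against 19.2, 21.8 and 20.2 CPM in Aalter (-0.39 ± 0.11, adjusted p = 0.0341). Both were without overlap, and VE-3 stood nearest to Aalter. E2f1, the transcription factor of the G1-to-S transition, had 4.87, 5.78 and 5.82 CPM in VE and 4.99, 8.84 and 7.96 CPM in Aalter, with Aalter-1 at the level of VE (-0.40 ± 0.23, adjusted p = 0.216). Pcna, the sliding clamp of DNA polymerases, had 311, 307 and 295 CPM in VE and 273, 354 and 344 CPM in Aalter, with Aalter-1 below VE and the other Aalter libraries above (-0.086 ± 0.12, adjusted p = 0.605).

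These calls depended on single libraries. Without VE-1 or without VE-2, 0 replication genes passed downward by edgeR, though 7 had an unadjusted p under 0.05 in each fit. Mcm2 and Mcm4 passed without VE-3, and Cdt1 alone passed without Aalter-2 or without Aalter-3. In the same 5 fits, in the order named, 455, 177, 805, 811 and 624 of all genes fell, against 2442 with all libraries. Without Aalter-1 the 7 genes and also E2f1 (-0.61, adjusted p = 0.00936) and Pcna (-0.19, adjusted p = 0.0167) fell, against 28.5% of all tested genes. Across all alternatives the log2 fold change of Cdt1 lay between -1.997 and -1.29 (adjusted p up to 0.0616), that of Mcm3 between -1.13 and -0.75 (up to 0.0679), that of Mcm2 between -0.905 and -0.63 (up to 0.0739) and that of Mcm4 between -0.74 and -0.56 (up to 0.0726).

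**Figure D3:**
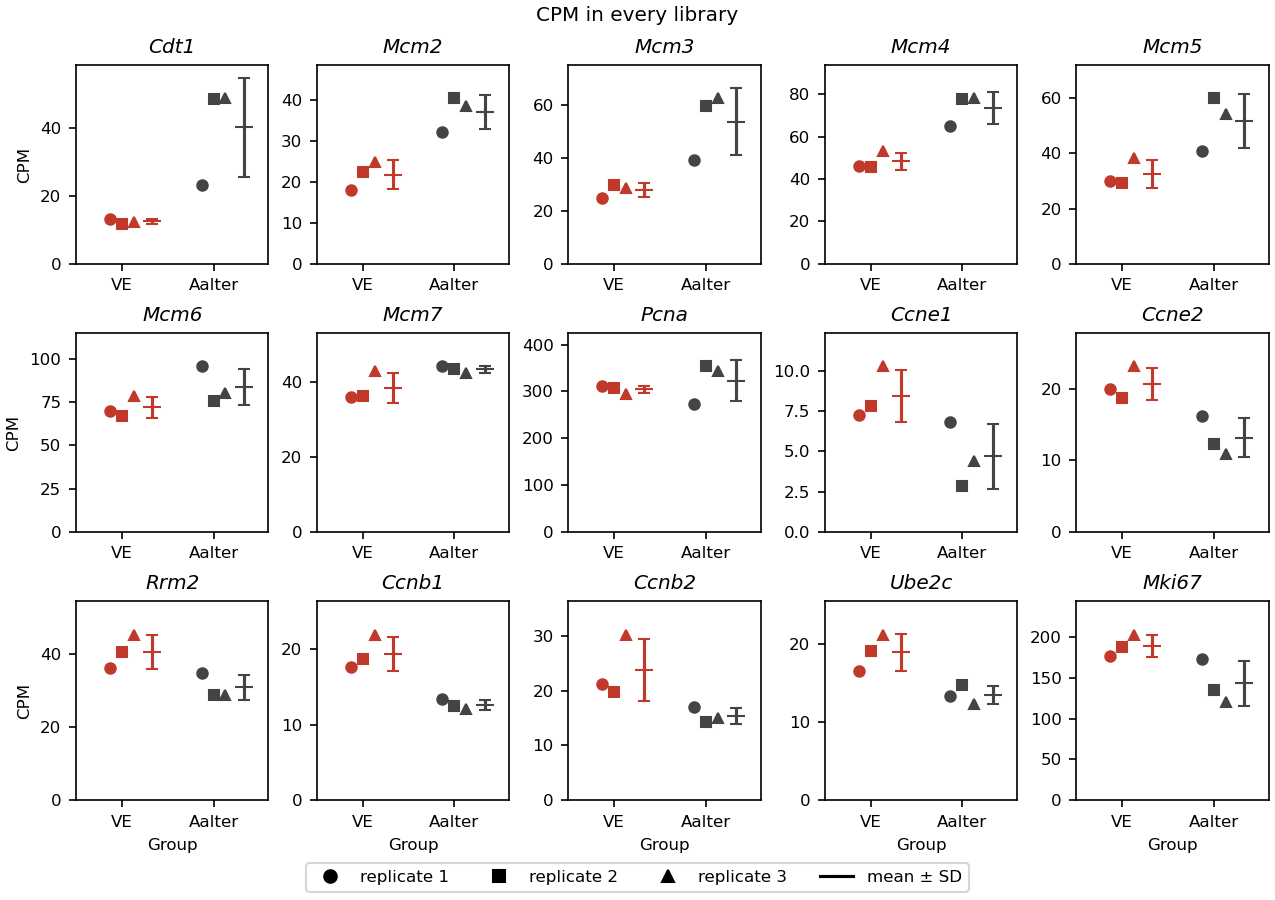
CPM of 15 genes in each library, VE in red on the left and Aalter in dark grey on the right of each panel, with the mean and SD beside the points and marker shapes for the replicate number. In Cdt1 and Mcm2 to Mcm5 the VE points lie below every Aalter point, with Aalter-1 (circle) the lowest Aalter point. In Ccne1, Ccne2, Rrm2, Ccnb1, Ccnb2, Ube2c and Mki67 the VE points lie above every Aalter point.

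Of the cyclin E genes 1 of 2 rose, as did 1 of 4 genes of nucleotide supply, against 12.8% of all tested genes. Over all 18 replication genes the share that rose was 11.1%, near that of all genes. Ccne2, a cyclin E, had 20.1, 18.8 and 23.2 CPM in VE, against 16.3, 12.3 and 11.0 CPM in Aalter (log2 fold change 0.65 ± 0.17, adjusted p = 0.0296). Ccne1, the other cyclin E, had 7.24, 7.79 and 10.3 CPM in VE and 6.82, 2.83 and 4.43 CPM in Aalter. Its groups did not overlap, yet Aalter-1 lay close to VE and the gene did not pass (0.84 ± 0.31, adjusted p = 0.0767). With Aalter-1 left out the call was made (1.201, adjusted p = 0.00111).

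Rrm2, the regulatory subunit of ribonucleotide reductase, had 36.0, 40.4 and 45.3 CPM in VE, against 34.8, 28.8 and 28.7 CPM in Aalter (0.40 ± 0.13, adjusted p = 0.0483). Its partner Rrm1 had 50.4, 52.8 and 61.6 CPM in VE and 60.5, 52.2 and 49.6 CPM in Aalter (0.023 ± 0.12, adjusted p = 0.896), and its log2 fold change turned to -0.12 with library size as the only scaling. Tyms, which makes thymidylate, averaged 22.7 ± 1.75 CPM in VE and 18.5 ± 1.59 CPM in Aalter (SD, n = 3), without overlap, and did not pass (0.29 ± 0.12, adjusted p = 0.0987). The thymidine kinase gene Tk1 did not pass either (0.26 ± 0.18, adjusted p = 0.300). Summed over Rrm1, Rrm2, Tyms and Tk1 the level was 117, 125 and 141 CPM in VE and 124, 104.5 and 105 CPM in Aalter, with Aalter-1 inside the VE range. The calls of Ccne2 and Rrm2 were both lost with any single library other than Aalter-1 left out. The adjusted p across all alternatives reached 0.193 for Ccne2, whose exons overlap those of Ints8 on the other strand, and 0.503 for Rrm2. Rrm2 (ENSMUSG00000020649) spans 24708241 to 24714146 on chromosome 12, and Ccne2 (ENSMUSG00000028212) 11191351 to 11204779 on chromosome 4.

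Among the mitotic genes, both B cyclins, partners of Cdk1, rose in VE. Ccnb1 had 17.6, 18.7 and 21.9 CPM in VE, against 13.3, 12.4 and 12.1 CPM in Aalter (log2 fold change 0.62 ± 0.13, adjusted p = 0.0149). Ccnb2 had 21.2, 19.8 and 30.3 CPM in VE, against 17.1, 14.3 and 15.0 CPM in Aalter (0.62 ± 0.18, adjusted p = 0.0384). VE-3 was the highest library for both, and the groups did not overlap. Cdk1, the mitotic kinase, had 22.7, 19.4 and 26.9 CPM in VE and 16.7, 17.3 and 17.4 CPM in Aalter, without overlap, and missed the threshold (0.43 ± 0.14, adjusted p = 0.0518). Ccna2, the cyclin of DNA synthesis and early mitosis, averaged 47.1 ± 6.78 CPM in VE and 32.1 ± 8.69 CPM in Aalter, overlapped through Aalter-1 and did not pass (0.55 ± 0.20, adjusted p = 0.0712).

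Of the spindle checkpoint and mitotic exit genes Ube2c and Bub1 rose, and Bub1b and Cdc20 did not pass. Ube2c, the ubiquitin-conjugating enzyme of the anaphase-promoting complex, had 16.5, 19.0 and 21.2 CPM in VE, against 13.3, 14.7 and 12.3 CPM in Aalter (0.49 ± 0.14, adjusted p = 0.0330). Bub1, a checkpoint kinase, had 10.8, 13.2 and 14.3 CPM in VE, against 10.2, 8.42 and 8.20 CPM in Aalter (0.51 ± 0.16, adjusted p = 0.0457). Aalter-1 lay just under VE-1 for Bub1, and the groups of both genes were apart. Exons of Ube2c overlap those of Tnnc2 on the other strand, as those of Gins2 overlap Gse1, and no source used here says whether counting used strand. The checkpoint gene Bub1b (0.095 ± 0.15, adjusted p = 0.649) and the activator gene Cdc20 (0.16 ± 0.17, adjusted p = 0.511) overlapped between groups. Ccnb1 (ENSMUSG00000041431) spans 100778650 to 100786570 on chromosome 13, Ccnb2 (ENSMUSG00000032218) 70407692 to 70421547 on chromosome 9, Ube2c (ENSMUSG00000001403) 164769898 to 164778822 and Bub1 (ENSMUSG00000027379) 127801122 to 127831865, both on chromosome 2.

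Common markers of proliferation differed among themselves. Mki67, which encodes the antigen Ki-67 and coats mitotic chromosomes, had 176, 188 and 203 CPM in VE and 174, 136 and 120 CPM in Aalter. Aalter-1 nearly reached VE-1, and the gene did not pass (0.40 ± 0.15, adjusted p = 0.0707), but passed without Aalter-1 (0.57, adjusted p = 8.9e-05). Top2a, the topoisomerase that untangles replicated DNA, had 77.0, 82.5 and 98.0 CPM in VE and 90.3, 86.0 and 87.7 CPM in Aalter, so the VE libraries lay on both sides of the Aalter range (-0.036 ± 0.11, adjusted p = 0.823). Birc5, the survivin gene of the chromosomal passenger complex, averaged 23.4 ± 2.21 CPM in VE and 17.4 ± 2.42 CPM in Aalter (0.42 ± 0.14, adjusted p = 0.0582), without overlap.

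The kinase genes Plk1, Aurka and Aurkb and the motor genes Kif11, Kif20a and Kif23 did not pass and differed in sign. The kinase gene Plk1 was at -0.27 ± 0.22 (adjusted p = 0.365), Aurka at 0.093 ± 0.21 (adjusted p = 0.750) and Aurkb, the kinase of the passenger complex, at 0.43 ± 0.17 (adjusted p = 0.0881), where every VE library lay above Aalter. The motor gene Kif11, which pushes spindle poles apart, was at 0.34 ± 0.16 (adjusted p = 0.145), Kif20a at 0.25 ± 0.14 (adjusted p = 0.207) and Kif23, a motor of cytokinesis, at -0.095 ± 0.11 (adjusted p = 0.544). The kinetochore genes Cenpe (0.31 ± 0.17, adjusted p = 0.195) and Cenpf (0.62 ± 0.23, adjusted p = 0.0781) and the microtubule genes Tpx2 (0.41 ± 0.16, adjusted p = 0.0901), Nusap1 (0.33 ± 0.15, adjusted p = 0.117) and Prc1 (0.14 ± 0.20, adjusted p = 0.593) complete the mitotic list. Aurka turned to -0.040 and Bub1b to -0.044 with library size as the only scaling.

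The count of mitotic genes that rose depended on Aalter-1. Without it 13 of the 22 rose, adding Birc5, Ccna2, Cdk1, Cenpe, Cenpf, Kif11, Mki67, Nusap1 and Tpx2 to the 4, against 27.8% of all tested genes that rose in that fit. Without VE-1, VE-2, VE-3, Aalter-2 or Aalter-3 in turn 0 of the 22 rose by edgeR, though 9, 6, 3, 6 and 5 had an unadjusted p under 0.05 in that direction. The number of all genes that rose in those fits was 26, 2, 104, 110 and 55, against 1612 with all libraries.

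GC content and transcript length moved with the calls over all genes. Genes that rose had a median GC content of 47.2% and a median longest transcript of 2701 bases, and genes that fell 52.7% and 4454 bases. The mitotic genes had a median GC content of 47.0% and the replication genes 51.8%, against 49.3% over all tested genes. Across the 18 replication genes the Pearson correlation of GC content with log2 fold change was -0.56, across the 22 mitotic genes -0.29 and across all tested genes -0.29, as a description over genes that share the same 6 libraries.

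After removal of the trends that GC content and length showed within libraries, Cdt1 (-1.34, adjusted p = 0.0156), Mcm3 (-0.77, adjusted p = 0.0230), Mcm4 (-0.73, adjusted p = 0.0173), Mcm2 (-0.63, adjusted p = 0.0233) and Mcm5 (-0.53, adjusted p = 0.0486) still fell, against 12.7% of all tested genes. The other 4 replication calls ended, with Uhrf1 at -0.51 (adjusted p = 0.0812), Gins2 at -0.087 (adjusted p = 0.559), Ccne2 at 0.32 (adjusted p = 0.126) and Rrm2 at 0.14 (adjusted p = 0.414). In that fit 4 mitotic genes rose, against 13.4% of all tested genes, but not the same 4. Ube2c (0.69, adjusted p = 0.0199) was joined by Mki67 (0.68, adjusted p = 0.0169), Cenpf (0.84, adjusted p = 0.0296) and Cdk1 (0.50, adjusted p = 0.0366), while Ccnb1 (0.31, adjusted p = 0.127), Ccnb2 (0.48, adjusted p = 0.106) and Bub1 (0.29, adjusted p = 0.192) did not pass.

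**Figure D4:**
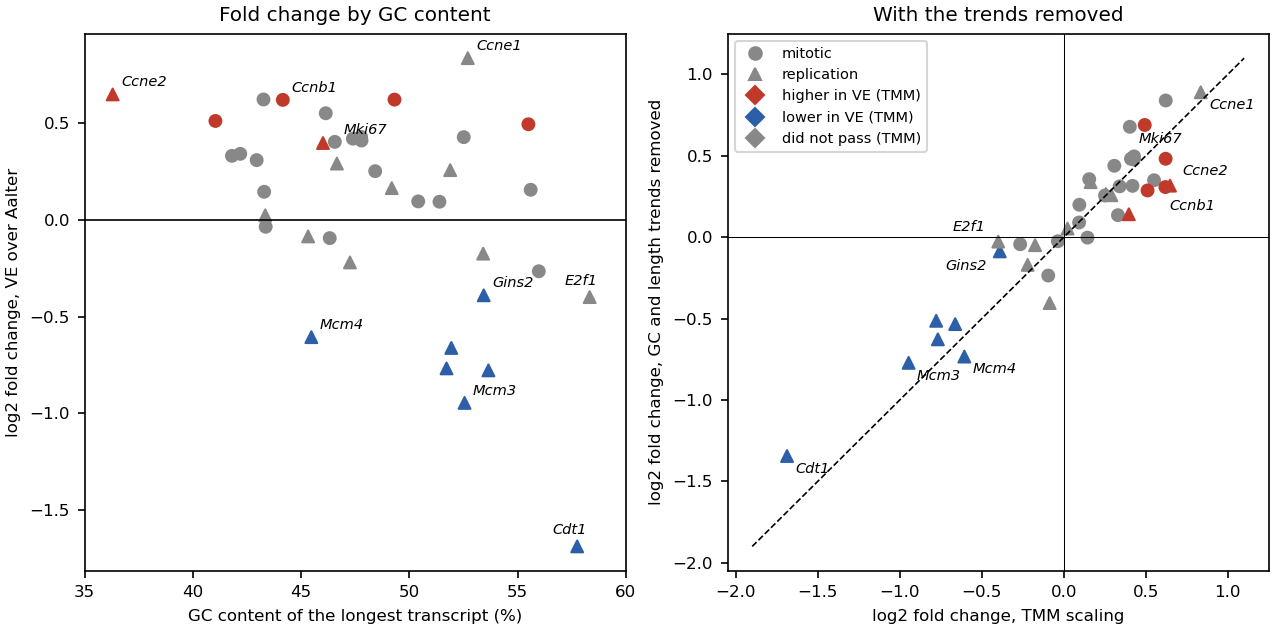
Left, log2 fold change (VE over Aalter) of the 40 genes against the GC content of the longest transcript in percent. Right, the same with GC content and length trends taken out against that with TMM scaling, the dashed line marking equal values. Circles are mitotic and triangles replication genes, coloured by the call with TMM scaling. Cdt1 and the Mcm genes that fell stay below 0 on both axes, and Gins2 and E2f1 move to near 0.

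Further genes of these pathways were counted on 7 lists, to be read against the 12.8% of all tested genes that rose and the 19.5% that fell. In the list of G1 cyclins and their kinases 1 of 6 tested genes fell (16.7%), Ccnd2, a cyclin D of lymphocytes and other cells, at 93.5 ± 15.0 CPM in VE and 165 ± 39.98 CPM in Aalter (log2 fold change -0.82 ± 0.20, adjusted p = 0.0242). Cdk4 (0.13 ± 0.087) and Cdk2 (-0.16 ± 0.12) did not pass. Among 11 tested inhibitors and pocket proteins 1 rose (9.09%), Rbl1, which encodes p107 and represses E2F targets (0.58 ± 0.18, adjusted p = 0.0471). Cdkn2d (0.47 ± 0.16, adjusted p = 0.0546) and Rbl2 (0.53 ± 0.27, adjusted p = 0.167) did not pass. Of 16 E2F and DREAM or MuvB genes 2 fell (12.5%), a share below that of all genes, though 13 had a negative log2 fold change (median -0.25). In 7 of the 16 (43.8%) every VE library lay below every Aalter library, against 26.3% of all tested genes, and in 2 above. E2f4, the repressor E2F of DREAM, averaged 22.0 ± 1.33 CPM in VE and 46.2 ± 11.5 CPM in Aalter (-1.07 ± 0.19, adjusted p = 0.0103), and Foxm1, an activator of mitotic genes, averaged 6.51 ± 0.45 CPM in VE and 11.2 ± 1.77 CPM in Aalter (-0.78 ± 0.16, adjusted p = 0.0154). With those trends removed 4 of the 16 fell and 1 rose, against 12.7% and 13.4% of all tested genes. E2f4 was then at -0.82 (adjusted p = 0.0164) and Foxm1 at -0.32 (adjusted p = 0.114). Tfdp1, the partner of E2F proteins, was at 0.37 ± 0.12 (adjusted p = 0.0517).

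Of 33 genes of origin licensing and the replication fork 2 rose and 2 fell (6.06% each), below the shares of all genes in both directions (12.8% and 19.5%), with a median log2 fold change of 0.10. Fen1, the flap endonuclease of lagging strand synthesis (-0.67 ± 0.15, adjusted p = 0.0182), and Pole, the leading strand polymerase (-0.66 ± 0.17, adjusted p = 0.0267), fell, and Orc5, of the origin recognition complex, rose (0.48 ± 0.14, adjusted p = 0.0346), as did Dut (0.32 ± 0.099, adjusted p = 0.0435), which is named after its value was seen. Of 22 further kinetochore, spindle and checkpoint genes 3 rose (13.6%, near the 12.8% of all genes), namely the motor gene Kif15 (0.56 ± 0.16, adjusted p = 0.0362) and the kinetochore genes Ndc80 (0.36 ± 0.11, adjusted p = 0.0399) and Spc25 (0.40 ± 0.12, adjusted p = 0.0408), and the median was 0.27. Of 10 condensin and cohesin genes 2 rose (20%), Ncapg (0.72 ± 0.17, adjusted p = 0.0201) and Stag1 (0.41 ± 0.12, adjusted p = 0.0340), and Ncapd2 fell (10%, -0.61 ± 0.16, adjusted p = 0.0285). Of 13 genes of the replication stress and DNA damage checkpoint 0 passed by edgeR, DESeq2 or limma-voom, with 1 in each direction at an unadjusted p under 0.05. Its smallest p-values were those of Cdc25a (-0.66 ± 0.22, adjusted p = 0.0558), Chek2 (0.90 ± 0.36, adjusted p = 0.0906) and Atrip (-0.44 ± 0.21, adjusted p = 0.142). With the same trends removed 17 genes of these lists passed, against 14 with TMM scaling. Of all tested genes 32.3% passed with TMM scaling, and with the trends removed 13.4% rose and 12.7% fell. The calls of Rbl1, E2f4, Fen1, Kif15, Ncapg and Stag1 were kept, and those of Ccnd2 (-0.66, adjusted p = 0.0545), Foxm1, Orc5, Pole, Dut, Ndc80, Spc25 and Ncapd2 ended. In that fit Ccnd3, Cdk6, Cdkn2d, E2f2, Rfc2 and Stag2 were gained as higher and E2f6, Lin9, Lin52, Dbf4 and Pola2 as lower. Without VE-1, without VE-2 or without Aalter-3 0 genes of the 7 lists passed by edgeR, against 14 with all libraries, 1 without Aalter-2, 2 without VE-3 and 52 without Aalter-1. In the fit without Aalter-1 27.8% of all tested genes rose and 28.5% fell.

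Markers of cell types that could hold dividing cells moved as well, and their part in the results above was not tested. Over all tested genes 12.8% rose and 19.5% fell, the shares against which these counts stand. Of 10 T cell markers 7 were lower and 1 higher, with a summed level of 690 to 840 CPM in VE and 872 to 1137 CPM in Aalter. Of 11 B cell markers 8 were lower (231 to 264 CPM in VE and 327 to 441 CPM in Aalter), and of 7 natural killer cell markers 4 were lower (663 to 1004 CPM in VE and 705 to 796 CPM in Aalter). The largest part of that natural killer sum was Gzma, at 494 to 768 CPM in VE and 388 to 450 CPM in Aalter. Gzma went the other way without passing (0.55 ± 0.18, adjusted p = 0.0501). Of 10 plasma cell and plasmablast markers 3 were higher and 1 lower (3491 to 6464 CPM in VE and 1332 to 2962 CPM in Aalter). The largest part of this plasma cell sum was Jchain, at 2843 to 5470 CPM in VE and 519 to 2299 CPM in Aalter. Jchain did not pass (1.79 ± 0.69, adjusted p = 0.0988), and the lower marker was Irf4 (-2.76 ± 0.60, adjusted p = 0.0229). Of 8 monocyte markers 5 were higher and 1 lower (4904 to 5076 CPM in VE and 2422 to 3630 CPM in Aalter), and of 8 mature neutrophil markers 7 were higher (34100 to 41910 CPM in VE and 23970 to 28570 CPM in Aalter). After adjustment for GC content and length 4 mature neutrophil markers were higher and 0 lower. S100a9 and S100a8, the largest parts of their sum, then turned from 0.64 to -0.61 and from 0.53 to -0.84 (log2), without passing. Retnlg turned from 0.44 to -0.59, also without passing, and the other mature neutrophil markers kept a positive log2 fold change.

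Of 8 markers of neutrophil precursors, which divide in bone marrow, 1 was higher and 1 lower, 12.5% each (61.2 to 109 CPM in VE and 84.6 to 135 CPM in Aalter). Of 9 alveolar macrophage markers 4 were lower (192 to 220 CPM in VE and 232 to 406 CPM in Aalter), and of 8 erythroid precursor markers 3 could be tested and 1 was lower (101 to 112 CPM in VE and 104 to 187 CPM in Aalter). Of 9 epithelial markers 2 were higher and 2 lower (201 to 212 CPM in VE and 261 to 430 CPM in Aalter), and of 8 endothelial and fibroblast markers 1 was higher and 1 lower, again 12.5% each (76.5 to 88.2 CPM in VE and 83.5 to 91.0 CPM in Aalter). No marker on these lists was at 0 in every library.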

How the data were processed

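RNA of 3 VE and 3 Aalter libraries was sequenced after a SMARTER mRNA-seq preparation, per the labels' protocols. The authors deposited estimated counts per gene, of which 10.466% to 12.238% of values were not whole numbers, and these expected counts were rounded to whole numbers. The build was mm10, per the submitters' processing notes, while for aligner, counter and strand use the entry is "not given in the sources used here". Columns were matched to samples by name. The table holds 21956 genes.

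Tests used edgeR 4.0.16 (TMM scaling, filterByExpr, robust quasi-likelihood fit, R 4.3.3) over 12551 genes, with Benjamini-Hochberg adjustment and a threshold of 0.05. CPM uses library size times the TMM factor, and the standard error is the log2 fold change over the root of F. Alternatives were DESeq2 1.42.0, limma 3.58.1 (voom), other scalings and filters, removed trends on GC content and length (GENCODE vM21, splines with 5 degrees of freedom, 99.8% of tested genes), the replicate number as a block, and libraries left out. The plain, block and trend-removal fits were tried on simulated counts. Those counts held no outlying library and no GC content or length trend, so the trial cannot show how the fits handle these. Precision rested on library totals and on the spread between libraries, and the common biological coefficient of variation was 0.21.

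The 40 genes and all lists were chosen with earlier results of these data known. Full values are given for genes past the test and for a fixed set (Mki67, Top2a, Cdk1, Ccnb1, Pcna, Mcm2, Mcm6, Rrm2, Ccne1, E2f1), and of each pathway list up to 3 genes with the smallest p are named. Promoters are those of up to 3 genes per class with the smallest p, plus Mcm5 and Rrm2, chosen after their values were seen.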

Additional observations from a re-analysis of the deposited data

How the results depend on the processing

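Directions held over 16 alternatives for all 13 members past the test, and the calls did not. With library size as the only scaling the median over all genes moved by -0.14 (log2), 495 of all genes rose, 1 mitotic and 0 replication genes rose by edgeR (3 and 1 at an unadjusted p under 0.05), and the replication median was -0.337; the share of higher genes among all calls was 13.3%, against 39.8% with TMM and 51.4% after removing trends on GC content and length. Under RLE, limma-voom or no filter 1 replication gene rose. With the trends removed 1593 of all genes fell, 0 replication genes rose by edgeR (2 at an unadjusted p under 0.05) and the replication median was -0.0682. The labels share replicate numbers, and deviations of same-numbered libraries correlated at 0.299, 0.272 and 0.0532, against -0.289 to 0.171 for libraries of unlike number. Deviations were taken from the group mean, so these values depend on each other and cannot settle whether the numbers pair libraries. No label states a pairing, and the main fit left the numbers out. With the replicate block 1193 of all genes rose and 2074 fell, 1 mitotic and 1 replication gene rose and 8 pathway genes passed. With the replicate block and the trends removed 1306 of all genes fell, 0 replication genes rose by edgeR (1 at an unadjusted p under 0.05) and the median was -0.0692.

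Without Aalter-1 and VE-1 3404 of all genes, 14 mitotic and 5 replication genes rose, 3559 of all genes fell, and 51 pathway genes passed. Leaving out single libraries gave 2 to 3561 higher and 177 to 3652 lower genes, 0 to 13 mitotic and 0 to 4 replication genes higher, 0 to 9 replication genes lower, 0 to 52 pathway genes, and a replication median of -0.305 to -0.167.

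Among the members and the named pathway genes signs turned only for genes that did not pass: with library size alone Bub1b (-0.0441), Aurka (-0.0404), Rrm1 (-0.117) and Cdk4 (-0.00723), with the trends removed Prc1 (-0.0026, and -0.016 with the block), with both Atrip (0.00559), and without Aalter-1 and VE-1 Top2a (0.0634). Over single libraries left out Top2a ranged from -0.17 to 0.0346, Bub1b from -0.0122 to 0.202, Aurka from -0.0588 to 0.257, Prc1 from -0.0396 to 0.279 and Rrm1 from -0.0959 to 0.115. Of the values of single genes under the alternatives 717 kept direction and side of the threshold, 185 lost it, 56 gained it and 16 turned sign. The cause was not tested.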

Other observations

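Ratios of summed or single levels within a library, chosen after their values were seen, are given as values with no test. The summed CPM of Mcm2 to Mcm7 over that of the 22 mitotic genes was 0.378, 0.361 and 0.358 in VE-1 to VE-3, against 0.535, 0.702 and 0.713 in Aalter-1 to Aalter-3. Cdt1 over Gmnn, the gene of its inhibitor geminin, was 0.934, 0.829 and 0.858 in VE, against 1.94, 6.08 and 4.14 in Aalter. Gmnn itself missed the threshold (0.42 ± 0.17 on the log2 scale, adjusted p = 0.0950 by edgeR). Ccne1 over Ccnd2 was 0.088, 0.0889 and 0.0929 in VE, against 0.0574, 0.0148 and 0.024 in Aalter. Mcm3 over Mcm6 was 0.358, 0.444 and 0.365 in VE, against 0.409, 0.789 and 0.778 in Aalter. In this last ratio the groups overlapped, since VE-2 lay above Aalter-1, and in the other ratios they did not. In all 4 ratios Aalter-1 was the Aalter library nearest to the VE mean.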
